A study of Mus musculus with 7 samples.

Results

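The genes described here encode the enzymes that remove superoxide and peroxides and that use or renew glutathione and thioredoxin, the main thiol reductants of the cell. They were chosen by gene symbol alone: the Gst classes a, k, m, o, p, t and z, Mgst, Gpx, Prdx, Txn-named genes, Sod, catalase (Cat), the glutamate-cysteine ligase subunits Gclc and Gclm, glutathione reductase (Gsr) and glutathione synthetase (Gss). Of 22180 genes with a probe set that names 1 gene, 58 were members, each with 1 probe set. Prdx1, Gsta1, Gsta2, Gstm5 and Gstz1 were matched only by probe sets that also name another gene and are not analysed here. The 7 whole-transcript arrays held RNA of collagenase-isolated pancreatic islets from mice at 2 months of age, with islets of 3 mice pooled for each array. The control group (3 arrays, labelled Gata6 flox/flox) carried floxed Gata6 alleles without Cre. The group labelled Gata6 KO (4 arrays, Gata6 flox/flox;Pdx1-Cre) carried the same alleles and Cre under the promoter of Pdx1, a gene of the pancreatic epithelium, so that all arrays share the floxed alleles and an effect of Cre cannot be told apart from one of Gata6. The comparison asks how expression in islets differs between the 2 genotypes.

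Superoxide dismutases turn superoxide into hydrogen peroxide, which catalase, glutathione peroxidases and peroxiredoxins reduce to water. Glutathione peroxidases draw on glutathione, which Gsr regenerates with NADPH, and peroxiredoxins draw mostly on thioredoxin, which thioredoxin reductases regenerate with NADPH. Glutathione transferases couple glutathione to electrophiles, and many of their genes, like Gclc, Gclm and Txnrd1, are known targets of the transcription factor Nrf2 (Nfe2l2) at antioxidant response elements. Beta cells are known for low catalase and glutathione peroxidase activity compared with liver.

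The sequences of 4 promoters are shown because they belong to the member that rose most (Sod1), to the member that fell (Gpx3) and to 2 neighbouring transferase genes with unlike changes (Gstp1 and Gstp2). Each is the stretch of 250 bases before the transcript start given by RefSeq in build GRCm38.p6, 5′ to 3′ on the strand of the gene, and capitals mark the core letters of the antioxidant response element, TGANNNNGC, found on either strand. The stretches are chr16:90220512-90220761 (plus strand) for Sod1, chr11:54902604-54902853 (plus strand) for Gpx3, chr19:4037913-4038162 (minus strand) for Gstp1 and chr19:4042222-4042471 (minus strand) for Gstp2.
Sod1: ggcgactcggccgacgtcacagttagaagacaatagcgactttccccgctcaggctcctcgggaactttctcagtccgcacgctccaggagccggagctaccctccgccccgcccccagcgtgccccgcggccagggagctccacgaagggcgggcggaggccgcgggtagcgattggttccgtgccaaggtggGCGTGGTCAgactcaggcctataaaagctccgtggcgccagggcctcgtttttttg
Gpx3: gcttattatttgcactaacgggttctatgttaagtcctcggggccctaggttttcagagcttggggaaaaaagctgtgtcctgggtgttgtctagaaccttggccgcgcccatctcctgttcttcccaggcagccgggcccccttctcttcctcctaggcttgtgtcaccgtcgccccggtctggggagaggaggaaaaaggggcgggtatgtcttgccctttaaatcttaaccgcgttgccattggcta
Gstp1: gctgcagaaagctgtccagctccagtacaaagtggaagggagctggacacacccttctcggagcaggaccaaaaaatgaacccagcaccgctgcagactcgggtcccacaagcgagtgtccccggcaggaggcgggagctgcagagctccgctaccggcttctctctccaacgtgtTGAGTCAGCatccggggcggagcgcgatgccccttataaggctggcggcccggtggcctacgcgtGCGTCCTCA
Gstp2: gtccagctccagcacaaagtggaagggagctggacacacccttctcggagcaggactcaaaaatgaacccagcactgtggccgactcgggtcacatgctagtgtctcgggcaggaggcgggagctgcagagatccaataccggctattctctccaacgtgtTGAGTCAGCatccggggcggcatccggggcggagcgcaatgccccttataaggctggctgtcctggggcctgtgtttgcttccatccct
In the window of 300 bases that adds 50 bases after the start, the core was present in 13581 of 32851 windows of all genes (41.3%) and in 29 of 68 windows of the members (42.6%). Of the 58 members 51 matched an entry of that table. At least 1 window held the core for 3 of 13 matched members that rose (Sod1, Gstp2 and Mgst1), for 0 of 1 that fell and for 21 of 37 that did not pass the test. That is 23.1% of the members that rose, beside 12174 of 27025 genes in all (45%) and 24 of 51 members (47.1%). The capitals of Gstp1 and Gstp2 include the same 9 letters, TGAGTCAGC, whose beginning TGAGTCA is also the letters of an AP-1 element. These matches are letters in a window and do not show binding.

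Gata6 itself measured 4.60, 4.80 and 4.83 in controls, against 5.41, 5.35, 5.34 and 5.01 on the arrays labelled Gata6 KO, in log2 signal. The targeted gene was therefore not lower on the latter (limma adjusted p = 0.0622), and directions below are those of the labels. The sources used here do not say where its probes lie relative to the deleted part. Array medians over all probe sets ran from 1.72 to 1.78 in the control group and from 1.89 to 2.11 in the other, and the median difference of all genes was 0.17. Changes are given below relative to this shift, as log2 differences minus 0.17, with the SE and adjusted p of the unshifted difference (limma, Benjamini-Hochberg over all 22180 genes, threshold 0.05). The signal of Xist, a transcript of female cells, was low on control array 3 and Gata6 KO array 3 (1.34 and 2.15) and between 5.02 and 5.60 on the others. Beta-cell markers were lower on the Gata6 KO arrays for 12 of 12 genes, with list means of 8.04 to 8.58 in controls, against 5.04 to 6.49 on the others. Alpha-cell markers were lower for 4 of 5 genes (list means 6.82 to 6.96 against 4.73 to 5.72). Delta and PP-cell markers were lower for 4 of 6 (7.47 to 7.86 against 4.73 to 6.52). Acinar markers were higher for 11 of 17 genes, with list means of 10.25 to 10.39 and 11.08 to 11.28. Of mesenchymal, lymphoid, macrophage and ductal markers, 9 of 15, 7 of 11, 6 of 13 and 7 of 15 were higher. Of the ductal markers 3 were lower. Of the mesenchymal and macrophage markers 3 each had a negative difference that did not pass the test. Mesenchymal list means ran from 3.27 to 4.09 and from 3.72 to 5.32, lymphoid means from 1.68 to 1.76 and from 2.52 to 3.20, macrophage means from 2.58 to 2.80 and from 3.05 to 4.00, and ductal means from 3.97 to 4.06 and from 4.15 to 4.64. Endothelial markers were higher for 2 and lower for 4 of 12 genes (16.7% and 33.3%). Of all genes 17.4% were higher and 7.36% lower, the shares beside which the counts of every marker list stand. The part of these other cell types in the results below was not tested, and fewer cells of a type cannot be told apart from less RNA per cell in such bulk samples.

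On the arrays labelled Gata6 KO, 16 of the 58 members rose and 1 fell. The shares were 27.6% and 1.72%, against 17.4% higher and 7.36% lower among all genes. The largest rise was that of Sod1, about 8.18-fold relative to all genes, followed by the transferase genes Gstp2, Gstm2 and Gsta4, at 3.07-fold, 2.75-fold and 2.71-fold. The fall was that of Gpx3, by a factor of 5.97. The median change of the members was 0.16 relative to all genes, and 41 did not pass the test. Every Gata6 KO array lay above every control array for 21 members and below for 4, that is, without overlap, against 24.4% and 9.96% of all genes. The balance of the directions moved with the scaling. After each array was centred on its median, 8 members were higher and 5 lower, against 8.43% and 12.5% of all genes. After a repeated quantile normalization 12 were higher and 4 lower, against 11.0% and 11.2%. Without control array 1 the number that rose went from 16 to 9. The number of all genes called also went down in that fit, as given in the last section. Without Gata6 KO array 4 the number of members that fell went from 1 to 3 (to 2 without control array 3). All genes were not counted by direction in the fits that left out an array. Sod1, Sod3, Gpx3, Gstp2, Gstm2, Gsta4, Gsto1 and Txnip kept their call under all 18 alternatives tried. Among these the looser threshold, an adjusted p under 0.10, could not end a call. Averaging probe sets left the difference of each member unchanged, because each has 1 probe set.

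**Figure D1:**
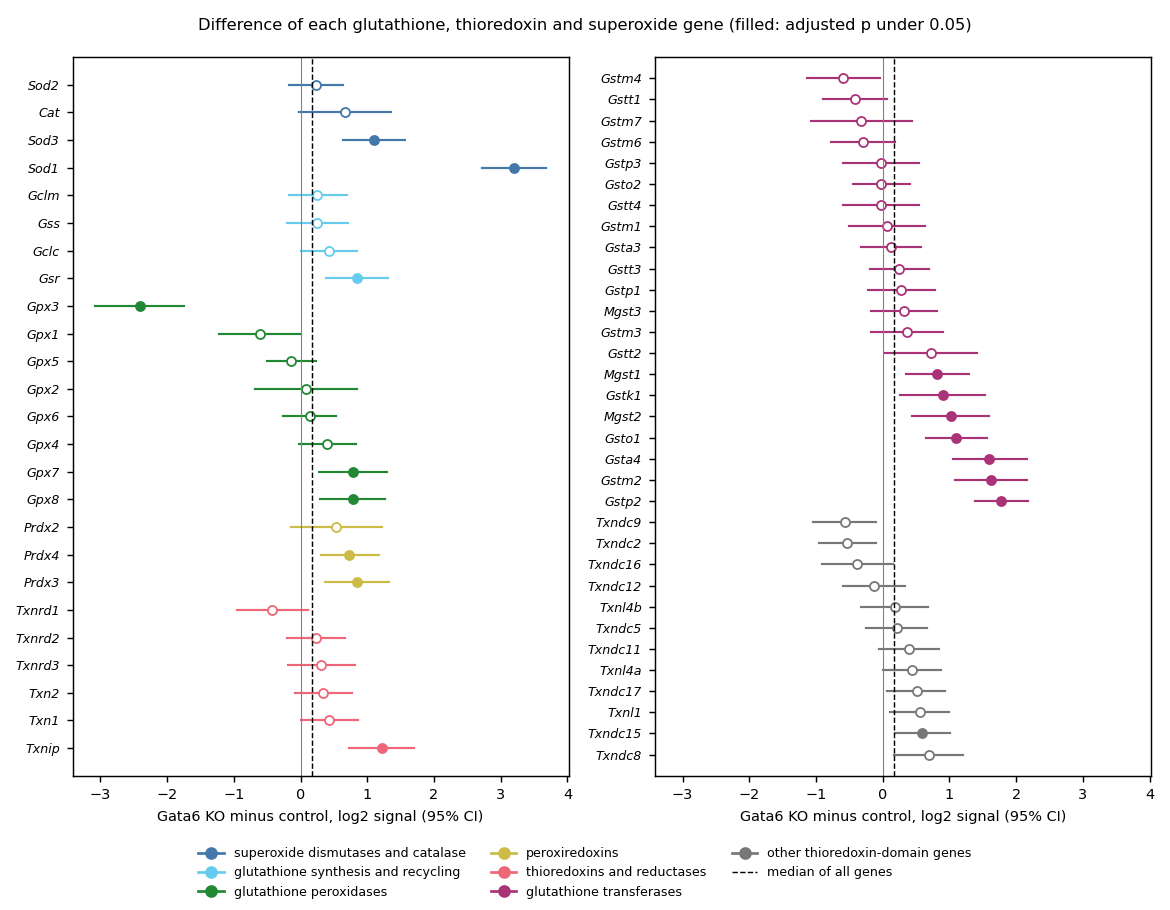
Log2 difference between the Gata6 KO arrays (n = 4) and the control arrays (n = 3) for each of the 58 members, not corrected for the shift, with its 95% confidence interval from limma; colours give the role, filled points passed an adjusted p of 0.05, and the dashed line is the median of all genes (0.17). Sod1 lies farthest right at 3.20 and Gpx3 farthest left at -2.41.

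The superoxide dismutases differed in how far they changed. Sod1, the copper and zinc enzyme of the cytosol, measured 5.09, 4.48 and 4.66 in controls, against 8.27, 8.11, 7.66 and 7.72 on the Gata6 KO arrays. The lowest Gata6 KO array was far above the highest control array. Sod1 changed by 3.03 relative to all genes (SE 0.22, adjusted p = 1.59e-06), and its unshifted difference stayed between 3.07 and 3.37 when each array was left out in turn. Sod3, the secreted enzyme of the extracellular space, measured 2.58, 2.57 and 2.95 in controls, against 3.54, 4.08, 3.90 and 3.70 on the others. Its groups did not overlap either, and it changed by 0.94 (SE 0.22, adjusted p = 0.00244). Sod2, the manganese enzyme of mitochondria, measured 6.38, 6.49 and 6.16 in controls, against 6.77, 6.56, 6.50 and 6.47 on the others. These values overlap, and the unshifted difference of 0.23 (95% CI -0.17 to 0.64) did not pass the test (adjusted p = 0.40).

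Within each array the log2 ratio of Sod1 to Sod2 was higher by 2.97 in the Gata6 KO group, and that of Sod1 to Sod3 by 2.09. A shift common to all genes of an array leaves these 2 ratios unchanged, whereas quantile normalization need not. Both had the smallest p that a two-sided exact permutation of 3 and 4 arrays can give (0.0286 over 35 splits). Neither passed after adjustment over the 16 gene pairs compared in this way (adjusted p = 0.0571), a family chosen after the data were seen. With so few arrays a pair could pass only if most of the 16 reached the smallest p. The adjusted result therefore cannot decide about a single pair. Ccs, the copper chaperone that loads the Sod1 protein, was outside the member rule and rose from 2.69, 2.68 and 3.19 to 4.25, 4.37, 4.26 and 4.55, a change of 1.34 (SE 0.21, adjusted p = 2.29e-04). Cat, which breaks hydrogen peroxide down in peroxisomes, measured 6.61, 6.43 and 7.68 in controls, against 7.83, 7.47, 6.86 and 8.12 on the others. Control array 3 lay above 2 of the Gata6 KO arrays, and Cat did not pass (adjusted p = 0.151). Without control array 3 it did, with an unshifted difference of 1.05 (adjusted p = 0.0332).

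**Figure D2:**
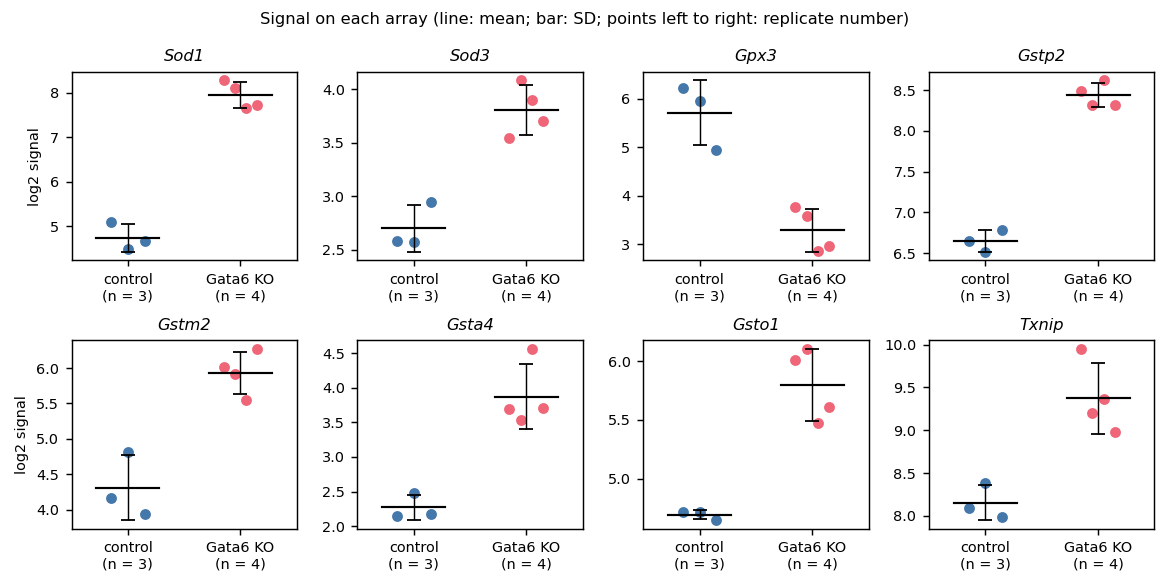
Log2 signal on each array for the 8 members whose call held under all alternatives, for the control group (n = 3) and the Gata6 KO group (n = 4), with the mean (line), the SD (bar) and the arrays ordered by replicate number; each panel has its own axis, which does not start at 0. In no panel do the groups overlap, and Gpx3 is the panel in which the control arrays are higher, at 4.95 to 6.21 against 2.87 to 3.76.

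Glutathione synthesis genes moved little, and the recycling enzyme rose. Gsr, which returns oxidised glutathione to its reduced form, measured 4.89, 4.35 and 4.51 in controls, against 5.75, 5.36, 5.41 and 5.19 on the Gata6 KO arrays. Its groups did not overlap, and it changed by 0.68 (SE 0.22, adjusted p = 0.0117). Leaving out control array 2 ended the Gsr call (adjusted p = 0.0702), as did centring (adjusted p = 0.0813). Gclc, the catalytic subunit of the rate-limiting ligase of glutathione synthesis, measured 4.81, 4.74 and 4.57 against 5.26, 4.96, 5.05 and 5.25. The Gclc groups did not overlap, but the change of 0.26 (SE 0.19) did not pass (adjusted p = 0.126). The regulatory subunit Gclm and the synthetase Gss each changed by 0.09 (SE 0.20 and 0.21), with adjusted p = 0.388 and 0.418.

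Among the 8 glutathione peroxidases Gpx3 fell, Gpx7 and Gpx8 rose and the other 5 did not pass the test. The shares were 25% higher and 12.5% lower, against 17.4% and 7.36% of all genes. Gpx3, the secreted plasma form, measured 6.21, 5.96 and 4.95 in controls, against 3.76, 3.58, 2.87 and 2.96 on the Gata6 KO arrays. Control array 3 was the lowest of its group but still above each Gata6 KO array. Gpx3 changed by -2.58 (SE 0.31, adjusted p = 1.03e-04), and its unshifted difference lay between -2.79 and -2.16 when single arrays were left out. The means of the beta-cell, alpha-cell and delta and PP-cell marker lists were also lower on each Gata6 KO array than on each control array, and their part in the Gpx3 result was not tested.

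Gpx7 and Gpx8 lie in the endoplasmic reticulum and serve oxidative protein folding. Gpx8 measured 3.48, 3.55 and 4.05 in controls, against 4.80, 4.21, 4.31 and 4.58 on the others, a change of 0.62 (SE 0.23, adjusted p = 0.0233). Gpx7 measured 2.14, 1.87 and 2.37 against 2.58, 2.77, 3.39 and 2.89, a change of 0.61 (SE 0.24, adjusted p = 0.0284). Neither gene overlapped between the groups. Both calls were lost after centring (adjusted p = 0.115 and 0.104) and without either control array 1 or control array 2. That of Gpx7 was also lost under quantile normalization (adjusted p = 0.103) and when Gata6 KO array 3 was left out (adjusted p = 0.0704) and that of Gpx8 without Gata6 KO array 1 (adjusted p = 0.0532).

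Gpx1, the abundant cytosolic and mitochondrial peroxidase, measured 6.23, 6.40 and 6.34 in controls, against 5.09, 5.57, 5.57 and 6.60 on the others. Gata6 KO array 4 was the highest of all 7 arrays, whereas the other 3 lay below each control array. Gpx1 changed by -0.78 (SE 0.29) and did not pass (adjusted p = 0.137). Without Gata6 KO array 4 it passed, with an unshifted difference of -0.91 (adjusted p = 0.00689), and it passed after centring (adjusted p = 0.0437). Gpx4, which reduces lipid hydroperoxides in membranes, measured 4.63, 4.98 and 4.84 against 5.43, 5.11, 5.17 and 5.18, without overlap. Its change of 0.24 (SE 0.20) did not pass (adjusted p = 0.150). Gpx2, the gastrointestinal form, and Gpx5 and Gpx6, known from the epididymis and the olfactory epithelium, had signals of 0.80 to 2.83 on all arrays, near the low end of the scale, and their unshifted differences lay between -0.14 and 0.14.

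Of the 3 peroxiredoxins measured, Prdx3 and Prdx4 rose (66.7%, against 17.4% of all genes). Prdx3, the mitochondrial peroxiredoxin, measured 5.17, 5.18 and 5.09 in controls, against 6.51, 5.71, 5.89 and 5.86 on the Gata6 KO arrays, a change of 0.68 (SE 0.22, adjusted p = 0.0127). The control arrays were close together and all Gata6 KO arrays were above them. Prdx4, the peroxiredoxin of the endoplasmic reticulum, measured 3.89, 4.19 and 4.26 against 5.06, 4.86, 4.64 and 4.83, also without overlap, a change of 0.57 (SE 0.20, adjusted p = 0.0178). Both calls were lost after centring (adjusted p = 0.0861 for Prdx3 and 0.116 for Prdx4), and that of Prdx4 without control array 1 or 2 (adjusted p = 0.0948 and 0.051). Prdx2, a cytosolic member, measured 4.44, 4.09 and 3.14 against 4.87, 4.49, 4.60 and 3.73, and its overlapping values did not pass (adjusted p = 0.243).

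In the thioredoxin system itself the inhibitor changed and the carriers did not pass. Txnip, which binds thioredoxin and is induced by glucose in beta cells, measured 8.09, 8.38 and 7.99 in controls, against 9.95, 9.20, 9.36 and 8.98 on the Gata6 KO arrays. Gata6 KO array 1 was the highest and all 4 exceeded each control array. Txnip changed by 1.05 relative to all genes (SE 0.23, adjusted p = 0.00167), about 2.07-fold. The cytosolic thioredoxin gene Txn1 measured 5.63, 5.50 and 5.69 against 6.31, 5.93, 6.13 and 5.79, without overlap, but its change of 0.27 (SE 0.20) did not pass (adjusted p = 0.128). The mitochondrial Txn2 changed by 0.17 (SE 0.20, adjusted p = 0.231). Txnrd1, the cytosolic reductase, measured 5.53, 5.82 and 4.94 against 5.22, 5.26, 4.57 and 4.96 and overlapped between groups, with a change of -0.59 (SE 0.25, adjusted p = 0.230). The mitochondrial reductase Txnrd2 changed by 0.06 (SE 0.21, adjusted p = 0.449) and Txnrd3, best known from testis, by 0.14 (SE 0.23, adjusted p = 0.354).

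The glutathione transferases were the largest group, and 7 of 21 rose (33.3%, against 17.4% of all genes). None passed in the other direction here, against 7.36% of all genes. After centring and after quantile normalization 5 were higher and 1, Gstm4, was lower. Of all genes 8.43% were higher and 12.5% lower after centring, and 11.0% and 11.2% after quantile normalization. Of the cytosolic classes 5 of 18 rose (27.8%), and of the microsomal Mgst genes 2 of 3 (66.7%). Gstp2, of the pi class, measured 6.65, 6.52 and 6.79 in controls, against 8.49, 8.32, 8.62 and 8.32 on the Gata6 KO arrays. Both groups were tight and far apart, and Gstp2 changed by 1.62 (SE 0.18, adjusted p = 1.68e-05). Gstp1 measured 8.73, 9.47 and 9.46 against 9.69, 9.24, 9.19 and 9.88, which overlap, and it changed by 0.11 (SE 0.23, adjusted p = 0.410). Gstp1 and Gstp2 are near-identical paralogs, so probes may share their transcripts and the unequal change of the 2 genes is uncertain.

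Gstm2, of the mu class, measured 4.17, 4.82 and 3.94 in controls, against 6.01, 5.91, 5.55 and 6.27 on the others. All Gata6 KO arrays were above the highest control array, and the change was 1.46 (SE 0.25, adjusted p = 4.09e-04). Gsta4, an alpha-class enzyme that conjugates the lipid peroxidation product 4-hydroxynonenal, measured 2.15, 2.48 and 2.18 against 3.69, 3.53, 4.56 and 3.71. Gata6 KO array 3 gave its highest value, and the change was 1.44 (SE 0.26, adjusted p = 5.89e-04). Gsto1, an omega-class enzyme with thioltransferase activity, measured 4.72, 4.72 and 4.65 against 6.01, 6.10, 5.47 and 5.61. Its control arrays nearly coincided, and the change was 0.94 (SE 0.21, adjusted p = 0.00211).

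The other transferases that rose were Mgst2, Gstk1 and Mgst1. Mgst2, a microsomal enzyme that can make leukotriene C4, changed by 0.86 (SE 0.27, adjusted p = 0.0140) at low signals of 0.85 to 1.58 in controls, against 1.66 to 2.82 on the others. Gstk1, the kappa-class enzyme of mitochondria and peroxisomes, changed by 0.73 (SE 0.29, adjusted p = 0.0393), from 4.55 to 5.18 on the control arrays to between 5.24 and 6.56 on the others. Mgst1, a membrane-bound enzyme with peroxidase activity, changed by 0.65 (SE 0.22, adjusted p = 0.0149), from 2.11 to 2.78 to between 3.16 and 3.41. None of the 3 overlapped between groups. The Mgst1 and Mgst2 calls were lost without control array 1 (adjusted p = 0.0915 and 0.0721) or control array 3 (adjusted p = 0.0542 and 0.0708), and that of Gstk1 without either of these or without Gata6 KO array 1 or 4 (adjusted p from 0.0502 to 0.137). After centring Mgst2 was still called (adjusted p = 0.0410), and Mgst1 and Gstk1 were not (adjusted p = 0.0734 and 0.119), nor were they after the repeated quantile normalization.

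Transferase genes lie in clusters, which allowed neighbours to be compared. In the mu cluster, ordered as in RefSeq, the changes relative to all genes were -0.48 for Gstm7, -0.46 for Gstm6, 0.20 for Gstm3, 1.46 for Gstm2, -0.10 for Gstm1 and -0.76 for Gstm4. Gstm2 was the member of this cluster that passed the test. Whether probes of the mu genes share transcripts was not checked, and Gstm5 was matched only by probe sets that also name another gene. Gstm4, at 2.73, 2.76 and 3.71 against 2.53, 2.56, 2.26 and 2.55, did not (adjusted p = 0.106) but was lower after centring (adjusted p = 0.0324). Its unshifted difference of -0.59 rested largely on control array 3, without which it was -0.27 (adjusted p = 0.464). Within arrays the log2 ratio of Gstm2 to its neighbour Gstm1 was higher by 1.56 in the Gata6 KO group, with an SD of 0.46 in controls, against 0.23 on the others (exact permutation p = 0.0286, adjusted p = 0.0571 over the 16 pairs). In the omega pair Gsto1 changed by 0.94 and Gsto2 by -0.18 (SE 0.20), and their ratio was higher by 1.12, with the same exact p and adjusted p. In the theta cluster Gstt3, Gstt1, Gstt4 and Gstt2 changed by 0.08, -0.58, -0.18 and 0.56, and none passed. Of the 13 neighbouring pairs and 3 dismutase pairs, 0 passed after adjustment, and 8 reached the smallest possible p. No pair could pass the adjustment alone, whatever the size of its change.

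**Figure D3:**
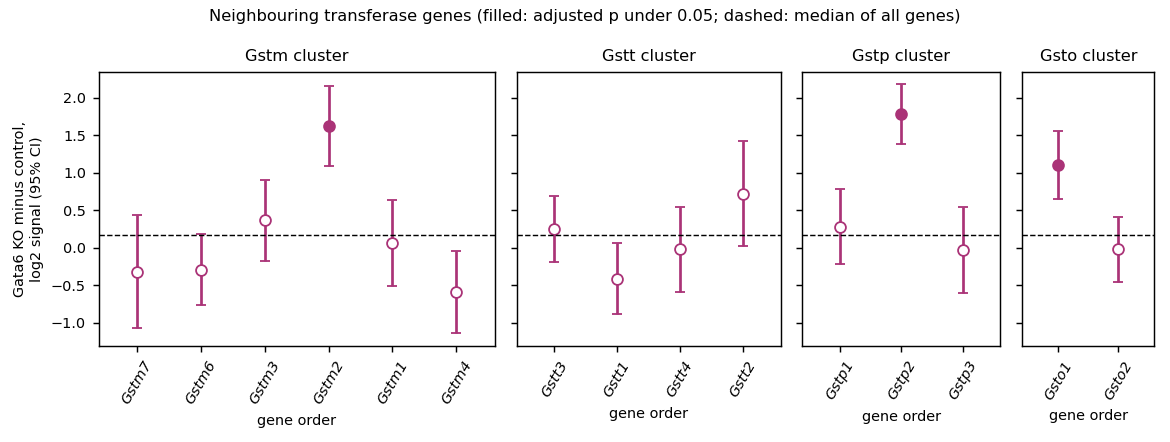
Log2 difference between the Gata6 KO arrays (n = 4) and the control arrays (n = 3) with its 95% confidence interval for transferase genes in the order of their clusters; filled points passed an adjusted p of 0.05 and the dashed line is the median of all genes (0.17). Gstm2, Gstp2 and Gsto1 stand above their neighbours, at 1.62, 1.78 and 1.10.

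Other Txn-named genes encode proteins with a thioredoxin fold and varied roles, and 1 of 12 rose (8.33%, against 17.4% of all genes). Txndc15, a membrane protein linked to cilia, measured 5.21, 5.04 and 5.09 in controls, against 5.81, 5.83, 5.74 and 5.44 on the others, a change of 0.43 (SE 0.19, adjusted p = 0.0383). Its groups did not overlap, but the call was lost after centring (adjusted p = 0.251) and without any one of 6 of the 7 arrays (adjusted p from 0.0568 to 0.128). Txndc8, a sperm thioredoxin, came next (adjusted p = 0.0509) at signals of 0.76 to 2.02. Txndc9 and Txndc2 lay lower on each Gata6 KO array than on each control array, with changes of -0.73 (SE 0.22) and -0.69 (SE 0.20), and did not pass (adjusted p = 0.0711 and 0.0695). After centring both did (adjusted p = 0.0202 and 0.0143). Txndc5, a disulfide isomerase of the endoplasmic reticulum, changed by 0.04 (SE 0.22, adjusted p = 0.508).

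Genes that regulate, feed or neighbour these enzymes were taken from 8 lists with 109 measured genes that are no members. The lists were drawn up with earlier results of these data known. Of these 28 rose and 8 fell, or 25.7% and 7.34%, beside 17.4% and 7.36% of all genes, so that the share that fell was that of all genes. After centring 18 were higher and 13 lower (all genes 8.43% and 12.5%), and after quantile normalization 24 and 13 (all genes 11.0% and 11.2%). Nrf2 (Nfe2l2) itself measured 5.05, 4.57 and 4.80 in controls, against 5.41, 5.12, 4.42 and 5.02 on the others, overlapping, with a change of 0.02 (SE 0.25, adjusted p = 0.611). Its repressor Keap1 changed by -0.09 (SE 0.23, adjusted p = 0.844). Of 10 Nrf2 regulators 1 rose and 1 fell (10% each, against 17.4% and 7.36% of all genes). The autophagy receptor gene Sqstm1, which binds Keap1, changed by 0.65 (SE 0.20, adjusted p = 0.00974). Nfe2l1, a relative of Nrf2, changed by -0.85 (SE 0.23, adjusted p = 0.0430). Sqstm1 did not pass after centring (adjusted p = 0.0743), and Nfe2l1 did not without control array 1 or 2 or Gata6 KO array 2, 3 or 4 (adjusted p from 0.051 to 0.213).

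Of 14 further Nrf2 targets 2 rose and 1 fell, shares (14.3% and 7.14%) near those of all genes (17.4% and 7.36%). Slc7a11, the cystine importer that supplies glutathione synthesis, measured 1.93, 1.57 and 1.71 in controls, against 3.30, 2.79, 2.53 and 2.74 on the others, a change of 0.94 (SE 0.23, adjusted p = 0.00336). The biliverdin reductase gene Blvrb changed by 1.11 (SE 0.26, adjusted p = 0.00286). The quinone reductase Nqo1 went the other way, from 2.87, 3.26 and 2.80 to 1.70, 2.19, 2.17 and 2.41, a change of -1.02 (SE 0.23, adjusted p = 0.0149), a call lost without control array 2 (adjusted p = 0.0825). Of these 3 targets, then, 2 were higher and 1 lower. Hmox1, the inducible heme oxygenase, and Srxn1, which repairs overoxidised peroxiredoxins, changed by 0.22 (SE 0.26, adjusted p = 0.302) and -0.18 (SE 0.20, adjusted p = 0.969).

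**Figure D4:**
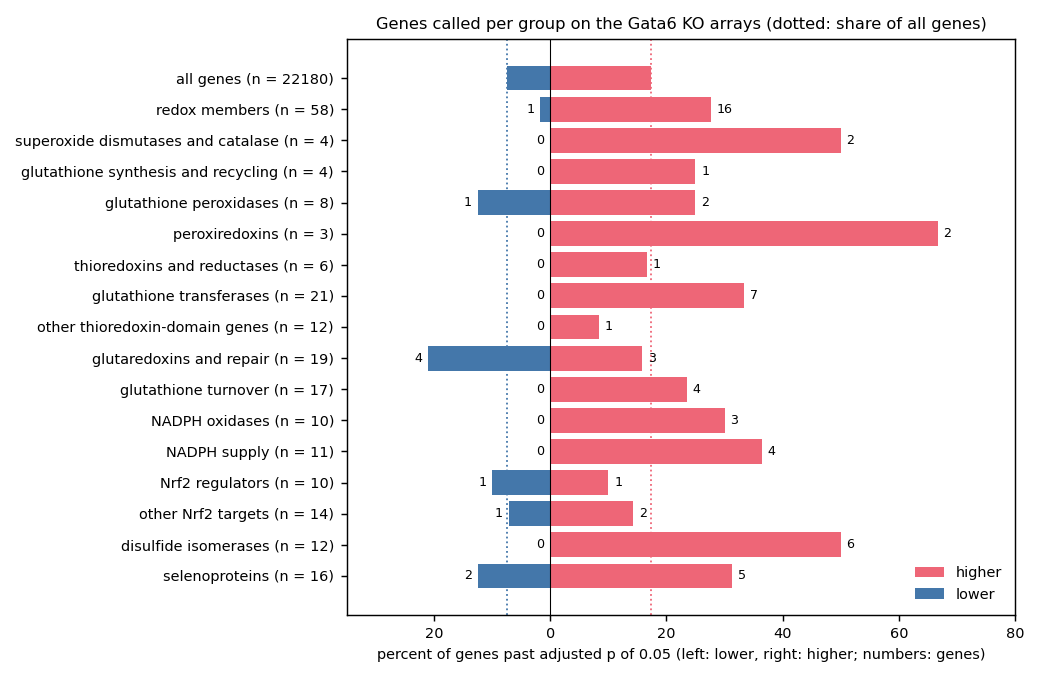
Share of the genes in each group that passed an adjusted p of 0.05, higher to the right and lower to the left, with the number of genes at each bar; dotted lines give the shares of all 22180 genes (17.4% and 7.36%). Bars rest on few genes (3 to 21 for the member roles, 10 to 19 for the related lists): 2 of 3 peroxiredoxins, 6 of 12 disulfide isomerases and 7 of 21 transferases were higher, while glutaredoxins and repair enzymes had 4 lower and 3 higher.

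Of 11 genes of NADPH-forming and pentose phosphate enzymes 4 rose and none fell (36.4% and 0%, against 17.4% and 7.36% of all genes). The pentose phosphate genes Taldo1, Rpia and Pgls changed by 1.10 (SE 0.28, adjusted p = 0.00513), 0.91 (SE 0.22, adjusted p = 0.00289) and 0.74 (SE 0.23, adjusted p = 0.0105). Their enzymes do not themselves form NADPH. Of 12 disulfide isomerases and oxidases of the endoplasmic reticulum and secretory pathway, where Prdx4, Gpx7 and Gpx8 also act, 6 rose (50%, against 17.4% of all genes). After centring 4 were higher and 1 lower (all genes 8.43% and 12.5%), and after quantile normalization 5 and 1 (all genes 11.0% and 11.2%). Erp44, P4hb and Pdia6 changed by 0.89 (SE 0.18, adjusted p = 0.00100), 0.81 (SE 0.17, adjusted p = 0.00114) and 0.74 (SE 0.18, adjusted p = 0.00271). Of 17 genes of glutathione turnover 4 rose (23.5%, against 17.4% of all genes). Their balance moved to 2 higher and 2 lower after centring (all genes 8.43% and 12.5%). After quantile normalization it was 3 and 2 (all genes 11.0% and 11.2%). Those that rose included the glyoxalase gene Glo1, with a change of 1.28 (SE 0.26, adjusted p = 0.00144), the microsomal prostaglandin E synthase Ptges (1.02, SE 0.26, adjusted p = 0.00429) and Chac2, which degrades glutathione (0.64, SE 0.23, adjusted p = 0.0193). Centring ended the Chac2 call (adjusted p = 0.10), as did leaving out control array 1 or 2 (adjusted p = 0.103 and 0.0835), and that of Pgls without control array 1 (adjusted p = 0.0575).

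Glutaredoxins and repair enzymes moved both ways, with 3 higher and 4 lower of 19 (15.8% and 21.1%, against 17.4% and 7.36% of all genes). Glrx, the cytosolic glutaredoxin, fell from 5.25, 5.11 and 5.14 to 4.12, 4.43, 4.24 and 3.77, a change of -1.20 (SE 0.21, adjusted p = 0.00314). Glrx3, which takes part in iron-sulfur cluster handling, rose from 2.14, 1.45 and 1.49 to 4.25, 3.55, 2.67 and 3.53, a change of 1.64 (SE 0.32, adjusted p = 0.00111). The methionine sulfoxide reductase Msrb1 changed by 1.26 (SE 0.25, adjusted p = 0.00108). Some glutathione peroxidases and the thioredoxin reductases are selenoproteins, which contain selenocysteine. Of 16 other genes of selenoproteins and their synthesis, 5 rose and 2 fell (31.2% and 12.5%, against 17.4% and 7.36% of all genes). After centring 2 were higher and 3 lower, and the balance of all genes turned as well (8.43% higher and 12.5% lower). After quantile normalization 4 were higher and 3 lower (all genes 11.0% and 11.2%). Sephs2, which makes the selenium donor, changed by 1.60 (SE 0.21, adjusted p = 4.64e-05), while Selenow and Selenon changed by -1.64 (SE 0.21, adjusted p = 2.02e-04) and -1.32 (SE 0.23, adjusted p = 0.00281). Of 10 NADPH oxidase and related genes, which produce superoxide or hydrogen peroxide, 3 rose (30%, against 17.4% of all genes). Ncf1 changed by 0.91 (SE 0.25, adjusted p = 0.00691), Duox1 by 0.71 (SE 0.21, adjusted p = 0.00897) and Cyba by 0.72 (SE 0.23, adjusted p = 0.0130). Centring ended the Cyba call (adjusted p = 0.0725), and so did leaving out control array 2 (adjusted p = 0.0541). Ncf1 and Cyba encode subunits of the phagocyte oxidase. Macrophage list means were higher on each Gata6 KO array than on each control array. Of the 13 macrophage markers 6 were called higher and 3 had a negative difference. The part of macrophages in the Ncf1 and Cyba results was not tested.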

How the data were processed

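The deposited values are log2 signals that the authors made with RMA, per the submitters' processing notes, where Transcriptome Analysis Console is named too. Further steps and the genome build are not given in the sources used here. The depth of an array has no count, so the number of arrays (7) limits the precision. Names of the 41345 probe sets came from the annotation of the platform, and per gene the probe set of a single symbol with the highest mean was used. All 22180 genes entered 1 fit without covariates (limma 3.58.1, R 4.3.3: lmFit, eBayes with trend, two-sided), which was tested on simulated data. Members were taken by symbol pattern and the lists by gene name, both with earlier results of these data known. Per role group every member past an adjusted p of 0.05 and a fixed set were named, array values were given for up to 4, and per related list up to 3. Further genes were named after their values were seen. Prdx5 and Prdx6, in that set, are not analysed here. Protein sequences were not used here. No labels name a batch, and p-values cover the spread between pools. Same-numbered arrays of the groups correlated at 0.10, 0.00 and 0.11 in their deviations from group means, and unlike-numbered ones at -0.14 to 0.07. Low Xist signal also fell on array 3 of both groups. Whether the numbers stand for pairs is not known. The main fit did not treat them as pairs, and a fit with the number as a block is among the alternatives. Alternatives were scaling, a filter on low values, probe set averaging, variance models, array weights, thresholds, blocks and leaving out each array. Figures were drawn with matplotlib 3.10.9.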

Additional observations from a re-analysis of the deposited data

Results flagged for a closer look

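The Gata6 signal on Gata6 KO array 4 (5.01) lay apart from the other 3 arrays of that group (5.34 to 5.41), with a gap of 0.831 of the group's range. Of the 32 genes checked in this group (31 named members and Gata6) it was the only one whose gap passed the 95% critical value of Dixon's test; chance flags about 1 in 20 groups.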

How the results depend on the processing

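Of 17 named members past the threshold, 8 kept their direction and their call under all 18 alternatives. The looser threshold among these could not end a call, and probe set averaging could not alter a member's difference. None of the 17 changed direction. After centring each array on its median, 8 members were higher and 5 lower, their median difference went from 0.33 to 0.10, and 18 related genes were higher and 13 lower. With a repeated quantile normalization 4 members and 13 related genes were lower, and the median was 0.19. Of all genes 8.43% were higher and 12.5% lower after centring, and 11.0% and 11.2% after quantile normalization. Without the 40% of genes with the lowest mean, which leaves 49 of the 58 members, 2 were lower; with array weights, 3. With the replicate number as a block (replicate block), 18 members were higher and 4 lower, and 5921 genes changed in all, against 5486. For the settings of this section other than centring and quantile normalization, all genes were counted without direction. Whether members moved more than all genes under those settings was not tested. With an adjusted p under 0.01, 2797 genes changed, 7 members were higher, and 18 related genes were higher and 5 lower; with one under 0.10, 3 members and 13 related genes were lower. Leaving out each array in turn gave 3265 to 5613 changed genes, 9 to 17 members higher, 1 to 3 lower, 20 to 33 related genes higher and 5 to 9 lower. Without control array 1 the count of changed genes was 3265, and without control array 2 it was 3586. The unshifted difference of Gpx2 (0.08) turned to -0.15 after centring, -0.10 after quantile normalization, -0.25 without control array 2 and -0.23 without Gata6 KO array 3 (range without single arrays -0.25 to 0.42), and that of Txnrd2 to -1e-04 after centring; neither passed in any of them. The cause of these shifts was not tested. The 9 members among the 40% of genes with the lowest mean were Gpx2, Gpx5, Gpx6, Gstm3, Gstm6, Mgst2, Txndc2, Txndc8 and Txnrd3, and their changes, also those compared with Gstm2, are limited by signals near the low end of the scale.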
